A study of Homo sapiens with 16 samples.

Results

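The genes described here encode 10 antimicrobial or protease-inhibiting products of epithelia: PI3, SLPI, WFDC2, CSTA, CST6, LCN2, LTF, DEFB1, RNASE7 and BPIFB1. Each was taken as the row of the expression table that carries its symbol. Each had exactly 1 row, so they make 10 of the 20166 gene symbols measured. They were followed in RWPE1, an established line of human prostate epithelial cells. There were 6 libraries of cells with an empty vector, described as an altered pTRIPZ, 6 libraries of cells over-expressing a wild-type construct, and 4 libraries labelled as cells over-expressing its T164A mutant. RNA was taken from snap-frozen cells and enriched for poly-A transcripts. The labels name no inducing agent, clone or culture, and the spread that the p-values measure is that among libraries, part or all of which may be technical.

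Surface epithelia guard against microbes and against the proteases of inflammatory cells with secreted proteins. PI3 (elafin) and SLPI carry the WAP domain, a small disulfide-bonded fold, and inhibit neutrophil elastase, while cystatins inhibit cysteine proteases of the cathepsin and legumain type. LCN2 binds the iron-carrying siderophores of bacteria, LTF (lactoferrin) binds iron itself, and DEFB1 and RNASE7 make cationic proteins that kill microbes. Several of these genes are induced by interleukin-1 and related cytokines, and PI3 and CSTA are also built into the cornified envelope of squamous cells. CSTA is mainly a cytosolic protein, so the name "secretions" covers it only loosely.

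The promoter sequences of 3 of the genes are shown because they differ in their values: LCN2 and RNASE7 were lower and WFDC2 was higher in the libraries labelled T164A than in the vector. RefSeq promoter windows were at hand for 5 of the 10 genes, these 3 with LTF and BPIFB1. None was at hand for PI3, SLPI, CSTA, CST6 or DEFB1. Each window shown is the 250 bases before the annotated start on the + strand of GRCh38.p14. Both strands were searched for the NF-kappaB motif, for the AP-1 pattern TGANTCA and for the C/EBP motif TTNNGNAA, and matches are in capitals. N is any base, which makes TGANTCA looser than the AP-1 consensus. LCN2 is at chr9:128149203-128149452, RNASE7 at chr14:21042112-21042361 and WFDC2 at chr20:45469503-45469752.
LCN2: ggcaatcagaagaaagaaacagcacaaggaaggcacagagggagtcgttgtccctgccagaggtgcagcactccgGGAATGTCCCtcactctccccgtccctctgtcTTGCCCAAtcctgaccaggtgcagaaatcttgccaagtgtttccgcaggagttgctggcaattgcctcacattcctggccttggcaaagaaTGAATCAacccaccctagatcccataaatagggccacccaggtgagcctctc
RNASE7: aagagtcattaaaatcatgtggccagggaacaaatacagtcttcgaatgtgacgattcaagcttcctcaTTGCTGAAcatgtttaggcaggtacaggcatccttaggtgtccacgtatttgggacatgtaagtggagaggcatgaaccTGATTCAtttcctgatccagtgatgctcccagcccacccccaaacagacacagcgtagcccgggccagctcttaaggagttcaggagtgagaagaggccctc
WFDC2: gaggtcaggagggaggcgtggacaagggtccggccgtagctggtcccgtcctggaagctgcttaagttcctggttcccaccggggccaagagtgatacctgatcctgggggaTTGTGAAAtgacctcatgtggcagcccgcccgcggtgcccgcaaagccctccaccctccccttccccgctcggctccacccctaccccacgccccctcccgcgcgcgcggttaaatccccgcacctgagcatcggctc
The LCN2 window held matches to all 3 patterns, with the NF-kappaB match at -175 and the AP-1 match at -52 from the start. RNASE7 held an AP-1 match at -102 and a C/EBP match at -181, and WFDC2 held a C/EBP match alone, at -138. The AP-1 matches of LCN2 (TGAATCA) and RNASE7 (TGATTCA) had A or T at the centre, which only the looser pattern allows. Among 35116 promoter windows of this length, 5.21% held the NF-kappaB motif, 6.57% the looser AP-1 pattern and 33.2% the C/EBP motif. LTF, not shown, held C/EBP matches alone, at -127 and -59 in different windows of the gene, and BPIFB1 held no match. These matches describe the letters only, and their link to the differences was not tested.

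The libraries held an estimated 12300000 to 19200000 reads. All values are the authors' deposited log2 values, and a floor of 3 estimated reads lies at 2.30 on that scale. Floors cover counting error only. Where a group mean was below the floor, the difference is given as a bound against it. The mean, not each library, is put at the floor, so the bound is approximate where that group's libraries lie on both sides of it. The libraries labelled T164A stood apart in cell type markers. For KRT5, a basal keratin, vector libraries were at 17.05 ± 0.14 (SD, n = 6), wild-type libraries at 16.52 ± 0.17 (n = 6) and T164A libraries at 15.46 ± 0.14 (n = 4). Other basal markers were far lower in T164A than in vector, among them KRT15 (-3.39), DSG3 (-4.18) and KRT6A (-4.20). Squamous markers fell in 17 of 17 genes in T164A, and neural and developmental genes rose in 13 of 15. Of all symbols, 27.2% were called lower and 37.1% higher in T164A. Both lists were chosen with earlier results of these data known, so the counts describe these libraries and are no independent support. IRS4, an insulin receptor substrate, was at 13.63 ± 0.04 (n = 4) there and below the floor in all 12 other libraries. Whether these libraries hold the labelled line cannot be told from the values, so T164A names only the libraries so labelled, and each of their differences compares those libraries. The part of these markers in the results that follow was not tested, and KRT15, DSG3 and KRT6A were named with their values known.

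With the wild-type construct, PI3, SLPI, CSTA, LCN2 and CST6 fell and LTF and BPIFB1 rose. The 4 abundant genes fell by 1.0 to 1.67 on the log2 scale. In the libraries labelled T164A the same 4 genes fell by 4.03 to 6.12, DEFB1, RNASE7 and CST6 fell as well, and WFDC2 rose. In bulk RNA, fewer cells that make a transcript and less of it per cell cannot be told apart.

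In wild type against vector, limma with Benjamini-Hochberg adjustment over all symbols called 7 of the 10 genes, 5 lower and 2 higher. Of all 20166 symbols, 45.5% were called, 24.5% lower and 21.0% higher. The 2 groups did not overlap for 5 of the 10 genes, against 29.4% of all symbols. With sets of close libraries averaged, CST6 and BPIFB1 lost their calls, leaving 5 of the 10 genes, and 3821 symbols were called rather than 9183. The median difference of the 10 genes was -1.03, or -0.97 with bounds in place of values below the floor, and the median of all symbols was -0.05.

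In T164A against vector, 8 of the 10 genes were called, 7 lower and 1 higher, where 64.4% of all symbols were called, 27.2% lower and 37.1% higher. The groups did not overlap for 7 genes, against 55.5% of all symbols. The median difference of the 10 genes was -3.12, or -2.02 with bounds, against 0.11 for all symbols. In wild type against T164A, 9 genes were called, 8 higher and 1 lower, against 61.8% of all symbols, 26.7% higher and 35.1% lower. With sets of close libraries averaged, BPIFB1 and WFDC2, the gene called lower, were not called, leaving 7. The groups did not overlap for 7 genes, against 52.4% of all symbols, and the median difference was 2.33, or 1.19 with bounds, against -0.08. The 3 comparisons share libraries in pairs and are not independent of each other.

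**Figure D1:**
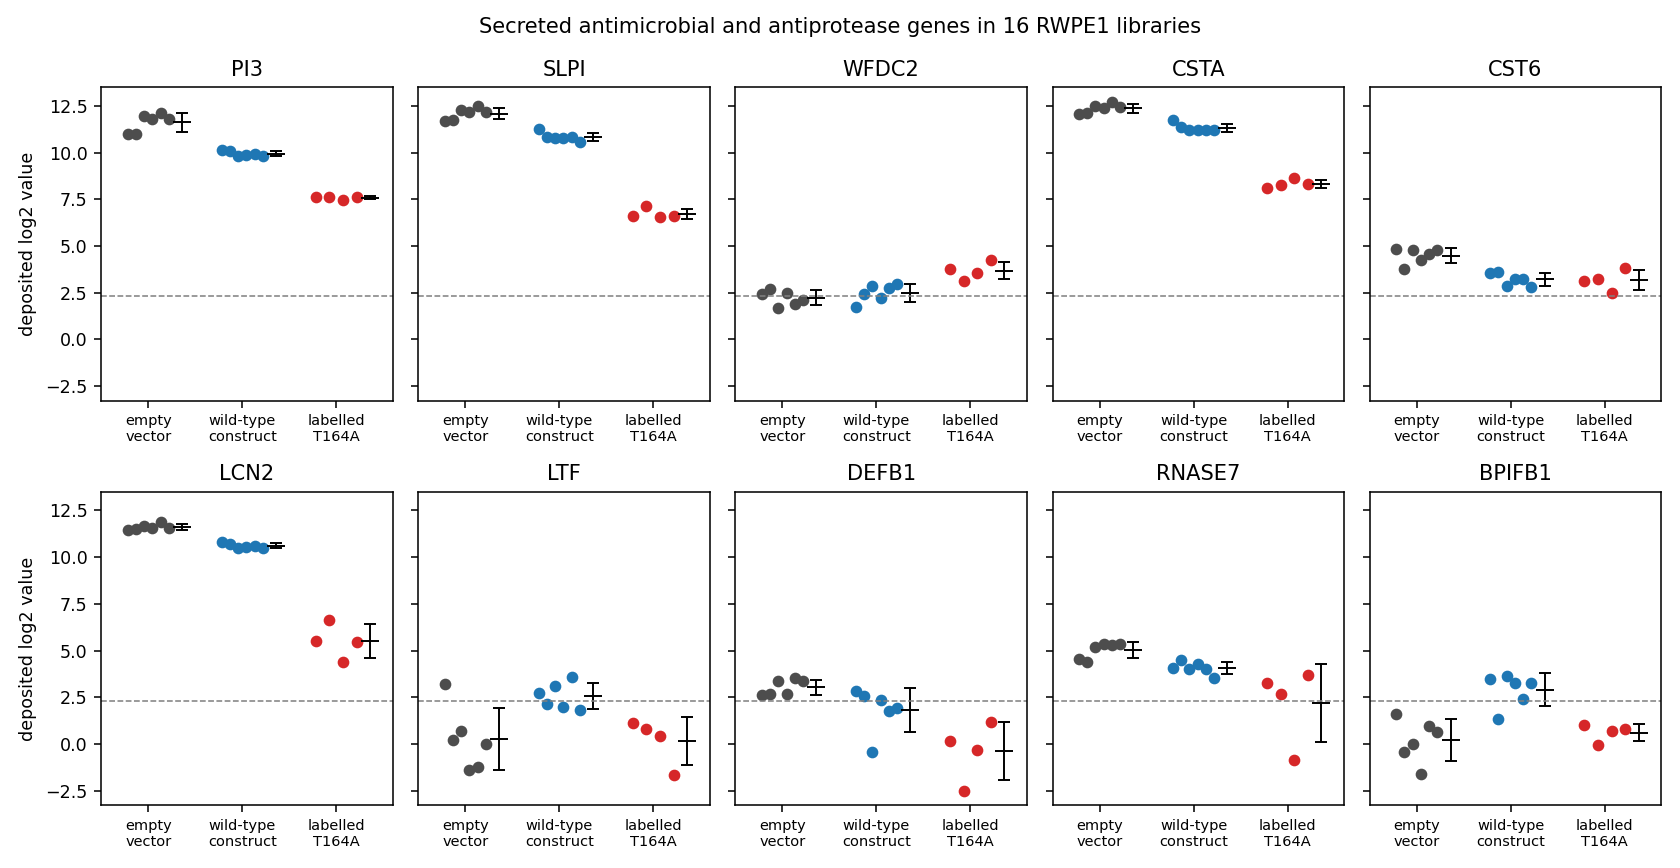
Deposited log2 values (y axis) of the 10 genes in each library, with empty vector in grey, wild-type construct in blue and libraries labelled T164A in red; the bar beside each group is its mean ± SD and the dashed line is the floor at 2.30. PI3, SLPI, CSTA and LCN2 step down from vector to wild type to T164A with no overlap, while the other 6 genes lie at 5.37 or less in every library.

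PI3 encodes elafin, an inhibitor of neutrophil elastase and proteinase 3. It ranged from 10.98 to 12.13 in the vector libraries, with a median of 11.81. In wild type it ranged from 9.81 to 10.14 with a median of 9.91, and in T164A it was at 7.61, 7.61, 7.48 and 7.63. The 3 groups did not overlap. PI3 fell by 1.67 in wild type (SE 0.14, 3.18-fold lower, limma adjusted p = 5.09e-10) and by 4.03 in T164A (SE 0.16, 16.4-fold lower, adjusted p = 2.06e-17). The vector group itself was split: replicates 1 and 2 were both at 10.98 and the other 4 libraries at 11.81 or above, whereas the wild-type libraries spanned 0.33.

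SLPI, an inhibitor of elastase and cathepsin G that also acts on microbes, ranged from 11.70 to 12.48 in the vector (median 12.16) and from 10.56 to 11.24 in wild type (median 10.79). In T164A it was at 6.61, 7.12, 6.53 and 6.58. It fell by 1.26 in wild type (SE 0.12, 2.40-fold lower, limma adjusted p = 3.59e-09) and by 5.38 in T164A (SE 0.14, 41.7-fold lower, adjusted p = 2.72e-21), with no overlap of groups. Vector replicates 1 and 2 were again the lowest of their group, at 11.70 and 11.75.

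WFDC2, a WAP protein best known from the epididymis and as a serum marker of ovarian tumours, ran the other way and at a very low level. Vector values ranged from 1.68 to 2.70 (median 2.27), with 3 of 6 libraries below the floor, and wild-type values ranged from 1.73 to 2.94 (median 2.58). The T164A libraries, at 3.78, 3.14, 3.55 and 4.23, were all above both other groups. WFDC2 rose by about 1.38 in T164A against vector, with the vector mean put at the floor (limma adjusted p = 0.00107). Wild type was lower than T164A by a difference of -1.20 (SE 0.37, adjusted p = 0.00624). Wild type against vector was not called (adjusted p = 0.567). With sets of close libraries averaged, wild type against T164A was not called either (-1.18, adjusted p = 0.0662).

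CSTA (stefin A), a cytosolic inhibitor of cathepsins, ranged from 12.08 to 12.73 in the vector (median 12.42) and from 11.18 to 11.76 in wild type (median 11.22), and was at 8.09, 8.28, 8.62 and 8.32 in T164A. The groups did not overlap. CSTA fell by 1.05 in wild type (SE 0.11, limma adjusted p = 7.82e-09) and by 4.05 in T164A (SE 0.12, adjusted p = 4.32e-20).

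CST6, the cystatin that inhibits legumain, was near the floor. Its values were 3.75 to 4.81 in the vector (median 4.67), 2.82 to 3.60 in wild type (median 3.22) and 3.1, 3.22, 2.49 and 3.80 in T164A. It fell in wild type by 1.28 (SE 0.28, limma adjusted p = 0.000469) without overlap, and in T164A by 1.33 (SE 0.31, adjusted p = 0.000531), where 1 T164A library reached above the lowest vector library. Wild type and T164A overlapped and differed by 0.05 (SE 0.31, adjusted p = 0.902), so that no further step between them was detectable at this depth. With sets of close libraries averaged, the fall in wild type was -1.12 and not called (adjusted p = 0.0595).

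LCN2 (lipocalin 2), the siderophore binder, ranged from 11.44 to 11.89 in the vector (median 11.57) and from 10.47 to 10.82 in wild type (median 10.58). In T164A it was at 5.49, 6.62, 4.38 and 5.48, the widest spread among the 4 abundant genes. It fell by 1.0 in wild type (SE 0.20, limma adjusted p = 0.000148) and by 6.12 in T164A (SE 0.22, 69.5-fold lower, adjusted p = 3.11e-18), which was the largest difference of the 10 genes in these fits. None of the LCN2 values of 1 group overlapped those of another. T164A replicates 92 and 93 were the highest and the lowest of their group.

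LTF and BPIFB1, a lipid-binding protein of airway secretions, were the genes that rose in wild type, from levels that were not detectable in most other libraries. LTF was above the floor only in replicate 1 of the 6 vector libraries, at 3.18, and in 3 of 6 wild-type libraries, the highest at 3.60. Its T164A values were 1.14, 0.79, 0.43 and -1.69. LTF was called higher in wild type by at least 0.25 against vector (limma adjusted p = 0.00441), with overlap, and by at least 0.25 against T164A (adjusted p = 0.00534). BPIFB1 was below the floor in all vector libraries, where the highest value was 1.60, and in all T164A libraries. In wild type it was above the floor in 5 of 6 libraries, with a median of 3.25, a lowest value of 1.35 and a highest of 3.66. It was higher by at least 0.60 against vector (adjusted p = 0.000101), with overlap, and by at least 0.60 against T164A (adjusted p = 0.00114). With sets of close libraries averaged, BPIFB1 was called neither against vector (adjusted p = 0.0618) nor against T164A (adjusted p = 0.0752). No fold is given for either gene between vector and T164A, where both means were below the floor.

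DEFB1, a beta-defensin made constitutively by many epithelia, lay just above the floor in the vector at 2.63 to 3.51 (median 3.0). Wild-type values were -0.46 to 2.82 (median 2.12), and the T164A values of 0.14, -2.52, -0.31 and 1.15 were all below the floor. DEFB1 differed from vector by -0.72 or lower in T164A (limma adjusted p = 2.76e-05). The fall in wild type was not called (about -0.72 with the wild-type mean put at the floor, adjusted p = 0.0824). Wild type and T164A differed by the test (adjusted p = 0.00322), but both means were below the floor. RNASE7, a ribonuclease of skin and the urinary tract, was at 4.37 to 5.37 in the vector (median 5.23), 3.54 to 4.50 in wild type (median 4.05), and 3.28, 2.67, -0.85 and 3.67 in T164A. Its difference from vector was -0.94 in wild type (SE 0.49, adjusted p = 0.123, not called). In T164A it was called lower than in vector (adjusted p = 5.32e-05), at -2.71 with the T164A mean put at the floor. The low T164A mean rests on replicate 93, and without it the fitted difference from vector was -1.81. RNASE7 was called higher in wild type than in T164A (adjusted p = 0.00374), although their values overlapped. With the T164A mean put at the floor the difference was 1.77, and without replicate 93 the fitted difference was 0.87. A fit of the 2 groups alone called the fall of DEFB1 (adjusted p = 0.0367) and of RNASE7 (adjusted p = 0.00186) in wild type.

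**Figure D2:**
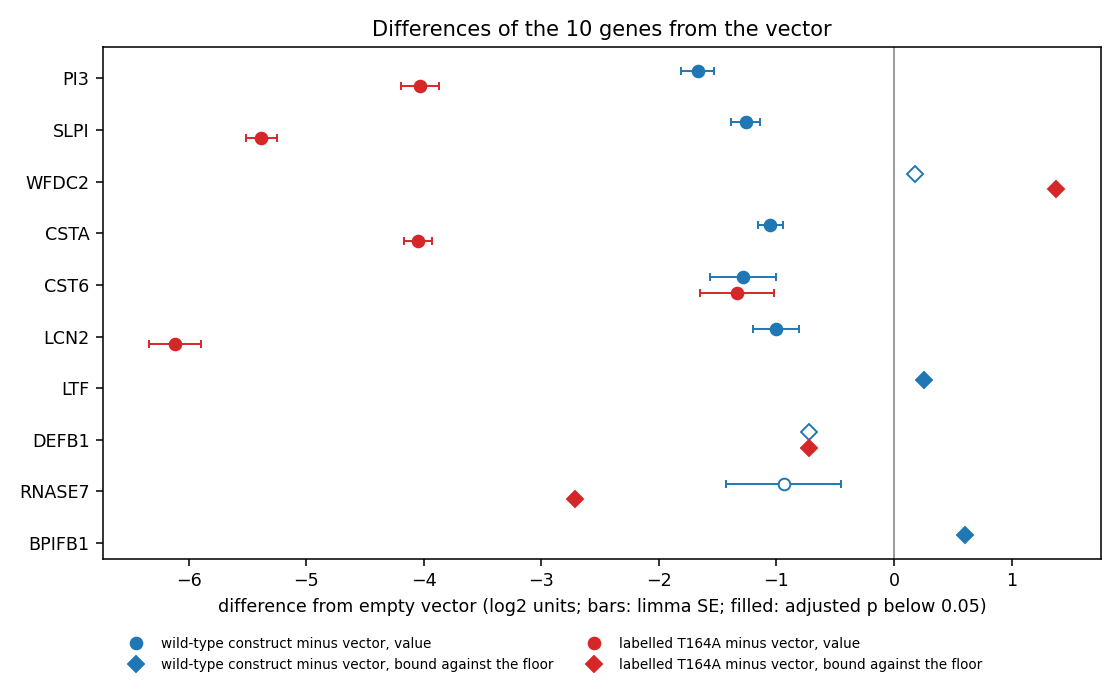
Difference of each of the 10 genes from the vector (x axis, log2 units), in blue for wild type and red for T164A; circles are fitted differences with limma SE, diamonds are bounds where 1 group mean is below the floor, filled symbols have an adjusted p below 0.05, and LTF and BPIFB1 have no T164A symbol because both means are below the floor. The red circles of SLPI and LCN2 lie furthest left, at -5.38 and -6.12, while the circles of CST6 lie close together at -1.28 and -1.33.

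Levels of different genes were compared per length, using GENCODE transcript lengths, as estimated reads per kilobase with each library scaled to 1000000 reads. In the vector, SLPI (488 ± 102, n = 6) and CSTA (470 ± 81.0) were highest, followed by PI3 (374 ± 119) and LCN2 (243 ± 27.7). The first 3 overlapped within 1 SD, as did PI3 and LCN2. In wild type the order was CSTA (238 ± 38.0), SLPI (212 ± 32.9), LCN2 (127 ± 10.3) and PI3 (118 ± 9.61), with CSTA and SLPI, and LCN2 and PI3, each overlapping within 1 SD. In T164A it was CSTA (27.4 ± 4.27, n = 4), PI3 (21.0 ± 1.01), SLPI (11.2 ± 2.39) and LCN2 (3.78 ± 2.48), with no overlap of neighbours within 1 SD. SLPI thus overlapped CSTA in the vector and lay below PI3 in T164A. The other 6 genes were at 1.84 or less in every group on this scale. Together the 10 genes took 0.0808% to 0.135% of estimated reads in the vector libraries, 0.0436% to 0.0601% in wild type and 0.00402% to 0.00483% in T164A.

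The abundant genes did not fall in proportion. For each library the log2 value of one gene was subtracted from that of another, which removes the library's scaling, and the 6 pairs of PI3, SLPI, CSTA and LCN2 were compared between groups by two-sided exact permutation tests, adjusted over 18 tests. These pairs were chosen after the values were seen. The smallest exact p is 0.00216 for 6 against 6 libraries and 0.00952 for 6 against 4. These tests take every library as a separate sample and were not repeated with sets of close libraries averaged. PI3 minus LCN2 was 0.01 ± 0.39 in the vector (n = 6, -0.53 to 0.30), -0.66 ± 0.03 in wild type (n = 6, -0.70 to -0.63) and 2.09 ± 0.86 in T164A (n = 4). The wild-type difference from vector was -0.67 (exact p = 0.00216, adjusted 0.0122), lower in 6 of 6 libraries than every vector library. The wild-type libraries were nearly identical in this ratio.

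PI3 fell further than CSTA in wild type, with a difference of -0.62 between groups (exact p = 0.00216, adjusted 0.0122), and in T164A the PI3 to CSTA ratio differed from vector by 0.01 (exact p = 0.924). For CSTA minus LCN2 no difference between wild type and vector was called (-0.05, exact p = 0.455), while in T164A LCN2 fell further and CSTA minus LCN2 was higher by 2.07 (exact p = 0.00952, adjusted 0.0122). SLPI fell further than CSTA in both, with differences of -0.21 in wild type (exact p = 0.00433) and -1.33 in T164A (exact p = 0.00952). The vector's own split shows in these ratios too, since replicates 1 and 2 had the lowest PI3 to LCN2 and PI3 to CSTA ratios of their group.

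**Figure D3:**
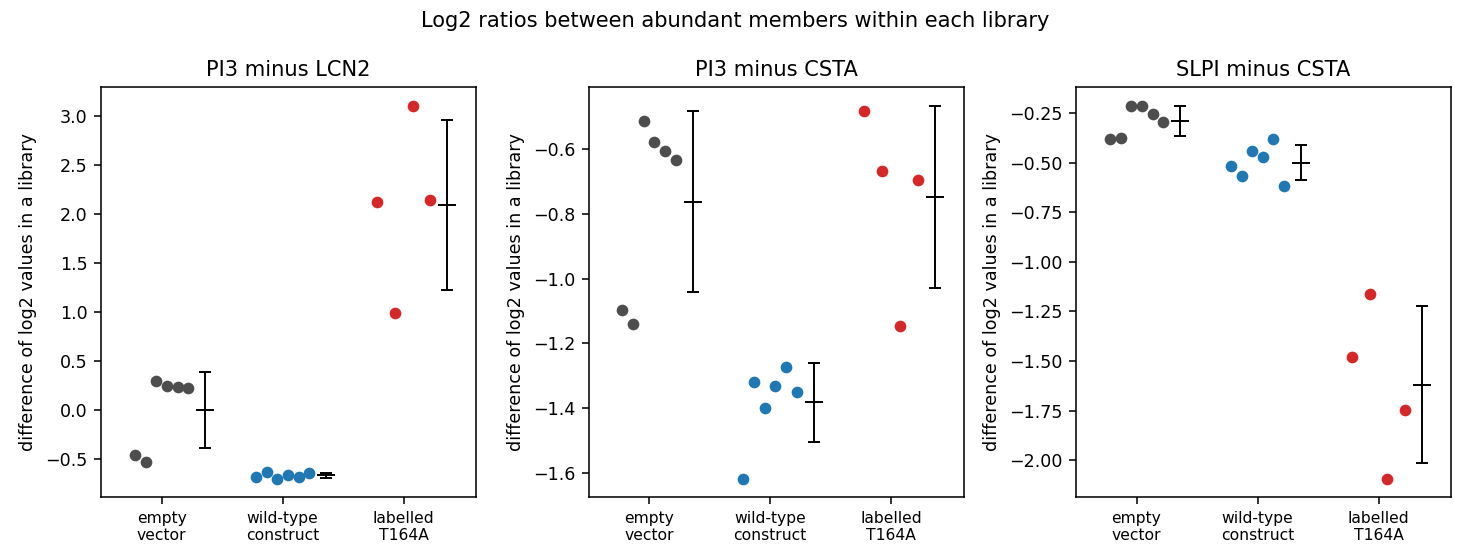
Difference of log2 values within each library (y axis; 1 point per library, bars are group mean ± SD) for PI3 minus LCN2, PI3 minus CSTA and SLPI minus CSTA. PI3 minus LCN2 lies between -0.70 and -0.63 in all wild-type libraries, below every vector library, and above 0.99 in all T164A libraries; the vector points form 2 heights for both PI3 ratios.

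Set against basal epithelial markers, the fall in wild type separated the groups for PI3 and not for SLPI, CSTA, LCN2, CST6 or RNASE7. PI3 minus the median of 15 basal markers ranged from -2.92 to -1.57 in the vector and from -3.26 to -3.03 in wild type, with no overlap. For SLPI the ranges were -2.19 to -1.27 and -2.44 to -2.06, for CSTA -1.81 to -1.05 and -1.98 to -1.54, and for LCN2 -2.46 to -1.87 and -2.58 to -2.39, and these overlapped. CST6, with ranges of -10.14 to -8.78 and -10.17 to -9.64, and RNASE7, with -9.53 to -8.37 and -9.32 to -8.75, overlapped too. In T164A the corresponding ranges, -4.73 to -4.46 for PI3, -5.72 to -4.95 for SLPI, -4.04 to -3.58 for CSTA and -7.83 to -5.45 for LCN2, were below both other groups. Those of CST6, at -9.72 to -8.5, and RNASE7, at -13.06 to -8.63, overlapped the vector, and the CST6 mean of -9.02 in T164A was not below the vector mean of -9.32. Basal markers fell in 14 of 15 genes in wild type (median -0.58) and in 10 of 15 in T164A (median -1.59), where 3 rose. Their summed log2 level was 18.3 to 18.5 in the vector, 17.5 to 18 in wild type and 17.1 to 17.3 in T164A.

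For the genes whose group means spanned more than 2 log2 units, the most similar profiles across the 16 libraries were sought. Likeness was the root mean square difference of log2 profiles, each centred on its own mean, among 11167 genes with a mean of at least 6. For SLPI the closest were SPINK5, a skin inhibitor of kallikreins (0.184), SPRR1B, a cornified envelope precursor (0.205), and the calprotectin subunit S100A9 (0.211). For CSTA they were the connexin GJB2 (0.162), the bradykinin receptor BDKRB1 (0.201) and the keratin KRT6A (0.217). For PI3 they were SPRR1A (0.295), the protease TMPRSS4 (0.310) and the channel TRPV3 (0.331), and for LCN2 they were CYP4F12 (0.335), COL5A3 (0.36) and TNNT2 (0.426). The search held no gene of low level, so nothing is read from it for LTF, DEFB1, RNASE7 and BPIFB1, whose values scatter near the floor.

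Most other members of the gene families were below the floor. The WAP list of 16 other genes measured also held SPINT3 and SPINT4, Kunitz-type inhibitor genes of the same cluster that carry no WAP domain. Of these 16, 12 had means below the floor in the vector. In wild type 3 fell and none rose by the limma test: WFIKKN1 (-0.93), WFDC5 (-0.83) and WFDC12 (-1.22). In T164A 4 fell and none rose, led by KAL1, the anosmin gene, at -4.15, with WFDC5 at -2.74, WFDC12 at -2.92 or lower and WFIKKN1 at -0.88. The list's median change was 0.06 and -0.51 in the 2 comparisons, or 0 in both with bounds. These 3 and 4 of 16 are near the 24.5% and 27.2% of all symbols called lower, so the counts are no result about the family. Of 12 other cystatins, CSTB, the close relative of CSTA, fell by 0.47 in wild type and by 0.51 in T164A, and CST3 (cystatin C) rose by 0.53 in T164A, with the rest not called. The T164A difference of CSTB thus stood at -0.51 beside -4.05 for CSTA, and the difference between these was not tested.

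PI3 and SLPI belong to a cluster of WAP genes on chromosome 20. In the RefSeq order, WFDC5, WFDC12 and PI3 are neighbours, followed by SEMG1, SEMG2 and SLPI. All 4 genes of this stretch that were above the floor in the vector, PI3 and SLPI among them, fell in both comparisons. Of all symbols, 24.5% were called lower in wild type and 27.2% in T164A. The semenogelin genes SEMG1 and SEMG2 had means below the floor in all 3 groups. Further along the cluster, MATN4 (-0.79 and -1.15 in wild type and T164A against vector), the syndecan SDC4 (-0.46 and -0.72), TP53TG5 (-0.44 and -0.99) and DBNDD2 (-0.67 and -1.39) were also called lower in both comparisons by limma. RBPJL had means below the floor in all 3 groups. SYS1 was not called in any comparison, PIGT was called higher in T164A (0.23, adjusted p = 0.00968) and not in wild type (-0.11, adjusted p = 0.233), and WFDC2, next to PIGT, rose in T164A as given above. The falls thus included genes of the stretch that carry no WAP domain. These neighbours were named with their values known, and a fall of the region as such was not tested.

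Among 30 other epithelial antimicrobial genes, 9 fell and 2 rose in wild type, and 11 fell and 2 rose in T164A, with medians of -0.29 and -0.26, or 0 in both with bounds. Of all symbols, 24.5% and 27.2% were called lower and 21.0% and 37.1% higher, so the count of falls in wild type is near that share. The S100 proteins that chelate metals led the falls. S100A8 fell by 1.37 (SE 0.16) in wild type and by 6.81 (SE 0.18) in T164A, S100A9 by 1.35 (SE 0.14) and 5.77 (SE 0.15), and S100A7 (psoriasin) by 1.37 (SE 0.17) and 6.49 (SE 0.19). PGLYRP4, a peptidoglycan recognition protein, fell by 0.94 and 6.0. The genes that rose were ANG (angiogenin), by 1.29 and 0.99, and, with both means below the floor, PIGR in wild type and BPIFA2 in T164A. ANG, PIGR and BPIFA2 were named with their values known.

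Genes for inducers and regulators of this defence, comprising interleukin-1 and interleukin-17 family signals, Toll-like receptors, NF-kappaB subunits, C/EBP factors and epithelial ETS factors, were largely expressed. Of 29 measured, 18 fell and 2 rose in wild type (median -0.46, or -0.25 with bounds), and 22 fell and 1 rose in T164A (median -1.23, or -0.94 with bounds), beside the same 24.5% and 27.2% of all symbols called lower. The epithelial ETS factor EHF had vector values of 9.49 ± 0.13 (n = 6), wild-type values of 11.65 ± 0.23 (n = 6) and T164A values of 4.91 ± 0.39 (n = 4). It rose by 2.16 (SE 0.12, limma adjusted p = 4.48e-14) in wild type, against the direction of the abundant genes, and fell by 4.58 (SE 0.13, adjusted p = 2.34e-20) in T164A. ELF3, another ETS factor, fell by 0.64 in wild type and by 4.65 in T164A, and KLF5 by 0.63 and 2.61. NFKBIZ, an NF-kappaB cofactor for LCN2, fell by 0.72 and 2.05, and IL1B by 1.04 and 1.51. The other gene to rise in wild type was the receptor IL1R1 (0.80), and the gene to rise in T164A was CEBPD (0.48), both named with their values known.

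Of 21 proteases and binding partners of the 10 products, 9 fell and 3 rose in wild type, and 10 fell and 5 rose in T164A (medians -0.28 and -0.63, or -0.22 and -0.40 with bounds), again beside 24.5% and 27.2% of all symbols called lower. KLK5, a skin kallikrein, fell by 1.03 (SE 0.08) and 2.48 (SE 0.09), and KLK7 by 1.11 and 4.16. TGM1, the transglutaminase that builds the cornified envelope, fell by 0.51 and 3.57. CTSC, the cathepsin that activates neutrophil proteases, fell by 0.77 and 0.62. SLC22A17, described as an LCN2 receptor, rose by 1.73 (SE 0.13) in wild type and by 1.21 (SE 0.14) in T164A, while LCN2 fell in both. The other risers, named with their values known, were TGM3 (1.24) and LGMN (0.49) in wild type and LRP2 (at least 6.79), MMP9 (2.15), TGM2 (1.02) and LGMN (0.75) in T164A.

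**Figure D4:**
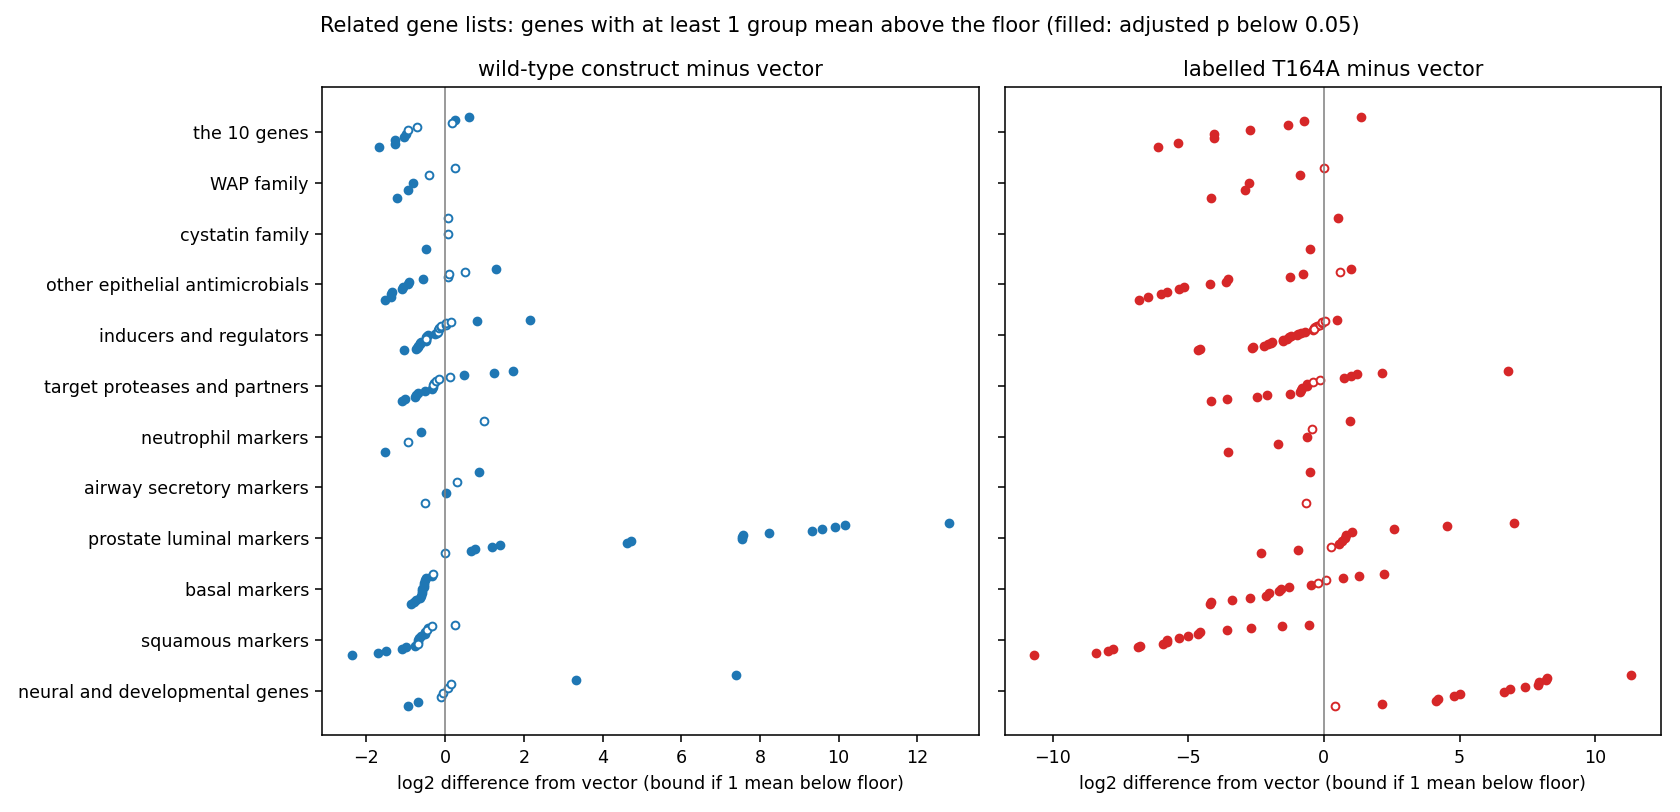
Log2 difference from the vector (x axis) for genes of each list with at least 1 group mean above the floor, in wild type (left) and T164A (right); filled points have an adjusted p below 0.05, and a bound is drawn where 1 mean is below the floor. Squamous markers lie left of 0 for all 17 genes in the right panel, as do 7 of the 8 drawn members of the 10, while the left panel shows the prostate luminal markers as the list reaching furthest right.

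Squamous markers moved with the abundant genes, and the prostate luminal and the neural and developmental lists did not. Of all symbols, 24.5% were called lower and 21.0% higher in wild type, and 27.2% lower and 37.1% higher in T164A. The summed log2 level of squamous markers was 16.4 to 16.5 in the vector, 15.6 to 16.1 in wild type and 10.98 to 11.13 in T164A, and 13 of 17 fell in wild type (median -0.69). Prostate luminal markers rose in 15 of 16 genes in wild type, with KLK3 (prostate-specific antigen) at 15.11 ± 0.39 (n = 6), and in 8 of 16 in T164A, where 4 fell. Their summed level was 12.02 to 12.32, 15.84 to 16.84 and 13.04 to 13.06 in vector, wild type and T164A. The sums in vector and T164A rest largely on NCAPD3, at 11.37 in vector, 11.38 in wild type and 12.16 in T164A. In the same order, 7, 0 and 6 of the 16 genes had means below the floor. NCAPD3 was named with its values known. Neural and developmental genes had sums of 8.53 to 9.05, 9.90 to 10.49 and 14.8 to 14.9, with 2 up and 2 down in wild type. The part of these lists in the results was not tested.

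Neutrophils are rich in LCN2, LTF and SLPI, so their markers were read too. The granule enzyme genes MPO and ELANE were below the floor in all 16 libraries. Other genes of the list were detected: S100A12, also an antimicrobial of squamous cells, had a vector mean of 5.82 ± 0.41 (n = 6), CXCR2 of 3.97 ± 0.61 and PTPRC of 2.91 ± 0.57, each above the floor in 6 of 6 vector libraries, and CD177 was above it in 5. In T164A, where LCN2 and SLPI fell, S100A12 (about -3.52), CXCR2 (about -1.67) and PTPRC (-0.61 or lower) were called lower as well. The granule gene AZU1 went the other way there and was called higher by at least 0.95. Of 14 neutrophil markers, 3 fell in wild type, and 4 fell and 1 rose in T164A. Means below the floor numbered 10, 11 and 13 of the 14 in vector, wild type and T164A. Summed levels were 6.28 to 7.05, 5.58 to 6.22 and 4.88 to 5.52 in the same order, and the part of this list in the results was not tested. Of all symbols, 24.5% were called lower and 21.0% higher in wild type, and 27.2% lower and 37.1% higher in T164A. SCGB1A1, a marker of airway secretory cells, was below the floor in all 16 libraries as well. MUC5B was above it in 6 of 6 vector and 5 of 6 wild-type libraries, with means of 2.95 ± 0.59 and 3.26 ± 0.54 (n = 6 each), and SFTPB in 6 of 6 vector libraries, at 2.81 ± 0.39. Of 9 airway markers, 2 rose in wild type, where BPIFB1 and LTF rose, namely MUC5AC (at least 0.85) and FOXJ1 (at least 0.03), and 2 fell in T164A. The summed airway level was 4.18 to 5.07 in the vector, 4.86 to 5.59 in wild type and 3.77 to 4.06 in T164A. The marker genes named here other than MPO, ELANE and SCGB1A1 were named with their values known, and the part of this list in the rise of BPIFB1 and LTF was not tested.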

How the data were processed

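Poly-A RNA of 16 RWPE1 libraries was prepared with a TruSeq kit and run on a HiSeq instrument, as the labels' protocols state. Per the submitters' processing notes, the named build is GRCh37 and the named software includes DESeq, Cufflinks 2.0.2, TopHat2 2.0.4 and CASAVA 1.8.2, whose roles and order were not given in the sources used here. The authors deposited 1 table of log2 values, whose transform these sources do not give. Above 11.5, 2 raised to the value less an offset of 1.89 lay within 0.05 of equal steps for 100% of values, which gave the estimated depth. Low values carry extra scatter, so whole reads could not be recovered and the values were tested as log2 values. Counting against near-identical copies or by strand is not described.

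Of 21594 rows, 1732 shared 304 symbols, and the row with the highest mean was kept. All 20166 symbols in all 16 libraries entered 1 limma fit (limma 3.58.1, R 4.3.3, variance trend; two-sided, threshold 0.05). Exact permutation tests used scipy 1.17.1. The fit was tested on simulated data. The 10 genes and all lists were chosen with earlier results of these data known. Named are the 10 genes, up to 3 called genes per list and comparison with the smallest p and a group mean of at least 4, the 3 most alike genes for each of the 10 whose means span over 2, and marker genes; genes outside this rule are marked. Alternatives were quantile normalization, a filter on a mean of at least 4, fitting only the 2 groups compared and averaging sets of close libraries. Each library of the 2 groups compared was also left out in turn. For the ratios, only quantile normalization and this leaving out were run. The targeted gene's own level is not reported here.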

Additional observations from a re-analysis of the deposited data

Results flagged for a closer look

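In 4 of the 30 gene and group combinations of the 10 genes, 1 library lay further from its nearest neighbour than Dixon's critical value allows, where chance flags about 1 in 20 groups. PI3 in T164A replicate 93 was at 7.475, with the other 3 libraries at 7.611 to 7.628, a gap that is small in size. SLPI in T164A replicate 92 was at 7.119, with the others at 6.527 to 6.612, and the same library had the highest LCN2 of its group. CSTA in wild type replicate 13 was at 11.76, with the others at 11.18 to 11.38. DEFB1 in wild type replicate 15 was at -0.4577, with the others at 1.751 to 2.824, a gap below the floor.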

How the results depend on the processing

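Of 662 alternative values for single genes and ratios, 638 kept direction and side of the threshold, 6 gained a call, 4 lost one and 14 reversed, the reversals all among values that were not called. When each library of the 2 groups compared was left out in turn, calls among the 10 genes stayed at 7, 8 and 9. Counts over all symbols were then 8660 to 9498 in wild type against vector. They were 12573 to 12909 in T164A against vector and 12006 to 12426 in wild type against T164A. Leaving out libraries of the remaining group, which share the estimate of the spread, was not run. The fit of the 2 groups alone, given above, also called DEFB1 and RNASE7 in wild type against vector. Some libraries of a group were closer to each other than to the rest, and with such sets averaged the symbols called in wild type against vector numbered 3821 rather than 9183, with fewer samples in the fit. That setting ended the calls of CST6 (-1.12, limma adjusted p = 0.0595) and BPIFB1 (1.88, adjusted p = 0.0618) there, and of WFDC2 (-1.18, adjusted p = 0.0662) and BPIFB1 (1.65, adjusted p = 0.0752) in wild type against T164A. A filter on a mean of at least 4 left only PI3, SLPI, CSTA and LCN2, of which 4, 4 and 4 were called. Quantile normalization called the falls of DEFB1 (-1.56, adjusted p = 0.0206) and RNASE7 (-1.33, adjusted p = 0.0163) in wild type, and moved WFDC2 to -0.058. LTF in T164A against vector was 0.17 with sets averaged and -0.41 to 0.54 on leaving out libraries. CST6 in wild type against T164A was -0.17 to 0.27. The PI3 to CSTA ratio in T164A against vector was -0.056 under quantile normalization and -0.074 to 0.15 on leaving out libraries. The SLPI to LCN2 ratio there, 0.74 (exact permutation adjusted p = 0.0536), was called under quantile normalization (0.79, adjusted p = 0.0429) and without T164A replicate 92 (0.98, adjusted p = 0.0268). The ratio alternatives were chosen after seeing the data, and the causes of these changes were not tested. Depth limits WFDC2, LTF, DEFB1 and BPIFB1, whose values lie near or below the floor. No paired analysis was possible because the groups share no replicate numbers.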
